A study of Oryza sativa with 6 samples.

Results

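The genes described here make, inactivate and sense gibberellin, a growth hormone, in rice (Oryza sativa) leaves. They were taken by locus ID, with no measured value used: CPS1, KS1, KO2 and KAO, which build the hormone's precursor, GA20ox2 and GA3ox2, which finish it, GA2ox3, which inactivates it, and GID1 and SLR1, which sense and relay it. Of these 9 genes, 8 were among the 19696 rows analysed, and GA3ox2 (Os01g0177400) was not analysed here. All 8 passed the filter on low values. RNA had been taken from leaves of seedlings 3 weeks old, grown on diluted MS medium, a defined plant culture medium. The wild type was the japonica variety ZH11, with 3 libraries, and the other group was DGP1-OE1, an overexpressor of DGP1, also with 3. The titles of all 6 libraries also carry Ck, which they do not explain. DGP1 (DEEP GREEN PANICLE1) is known for holding down chlorophyll synthesis in rice glumes. The promoter of the transgene is not given in the sources used here, and the overexpressor is a single line.

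Gibberellins are diterpenes. Cyclases in the plastid form the ring skeleton, cytochrome P450 enzymes oxidise it, and soluble dioxygenases turn the product into active hormone or inactivate it. The active hormone binds the receptor GID1, and the bound receptor takes hold of SLR1, the DELLA protein of rice, a repressor of growth that is then marked for degradation. In rice, loss of the synthesis enzymes or of the receptor gives dwarf plants, and loss of SLR1 gives slender, overgrown ones. Transcripts of GA 20-oxidases commonly fall, and those of GA 2-oxidases commonly rise, when the hormone is high.

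Values were deposited as FPKM, in which fragments are divided by the length of the transcript and the size of the library. The levels of different genes can thus be set side by side, but only roughly. The annotation behind the lengths is not given in the sources used here, so the lengths were not checked. No counts came with them and depth is unknown, so no counting interval is given. FPKM summed to between 686327 and 752617 per library. The tissue label was looked at through 5 loci taken from general knowledge as leaf photosynthesis genes, which no table used here annotates. All 5 were listed, at 5.75 to 30582 FPKM over the 6 libraries, and DGP1-OE1 replicate 2 was the lowest library for all 5. Among all 18270 genes tested, 7.19% had every DGP1-OE1 library below every ZH11 library. This was so for 2 of the 5 loci. One of them was listed at 3733, 1817 and 4738 FPKM in ZH11 replicates 1, 2 and 3 and at 352, 5.75 and 331 FPKM in the DGP1-OE1 ones. The other was listed at 2818, 2183 and 3097 FPKM and at 1160, 323 and 2026 FPKM in the same order. The other 3 loci overlapped between genotypes, with DGP1-OE1 replicates 1 and 3 above every ZH11 library and replicate 2 below every one. DGP1-OE1 replicates 1 and 3 were listed at 22765 and 30582, 2902 and 3264, and 13646 and 16766 FPKM for these loci. The highest ZH11 values were 15934, 2635 and 12741 FPKM in the same order. The part of the 5 loci in the results below was not tested. Without DGP1-OE1 replicate 2, as with it, 0 of the 8 gibberellin genes were called (limma), and 0 reached an unadjusted p under 0.05. In that fit only 35 of the 18270 genes tested were called higher and 42 lower. Counts of 0 among 8 genes thus say little about the part of this library. A seed storage locus chosen in the same way lay at 0.528 to 2.68 FPKM, and the loci chosen for root and shoot meristem were not analysed here. The locus ID of DGP1 is not known from these sources, so its overexpression was not checked. Whether each replicate came from its own plant is not stated in the labels, so p-values speak only of how far these libraries spread, and that spread could be technical. Fewer cells of a type and less RNA per cell cannot be told apart in whole leaves.

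No gibberellin gene passed the test between DGP1-OE1 and ZH11. Of the 8 genes, 0 were called by limma at an adjusted p under 0.05 and 0 reached an unadjusted p under 0.05. Over all 18270 genes tested, 0.356% were called (65 genes, 29 or 0.159% higher in DGP1-OE1 and 36 or 0.197% lower), and 8.8% reached an unadjusted p under 0.05. The groups of libraries did not overlap for 1 of the 8 genes, GID1, or 12.5%, which is close to the 13.9% among all tested genes. GID1 lay lower in DGP1-OE1, and 7.19% of all tested genes lay lower there without overlap. Differences are DGP1-OE1 minus ZH11 on the log2(FPKM + 1) scale, which understates the change of low genes. The mean was higher in DGP1-OE1 for 5 genes and lower for 3, with a median difference of 0.15 against -0.0096 over all tested genes. Among the 5, GA2ox3 passed the filter on low values through DGP1-OE1, the group where it is higher. The median size of the difference was 0.26 for the 8 genes and 0.25 for all tested genes. The adjusted p-values of the 8 genes ran from 0.757 to 0.997 (limma, Benjamini-Hochberg over all tested genes).

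**Figure D1:**
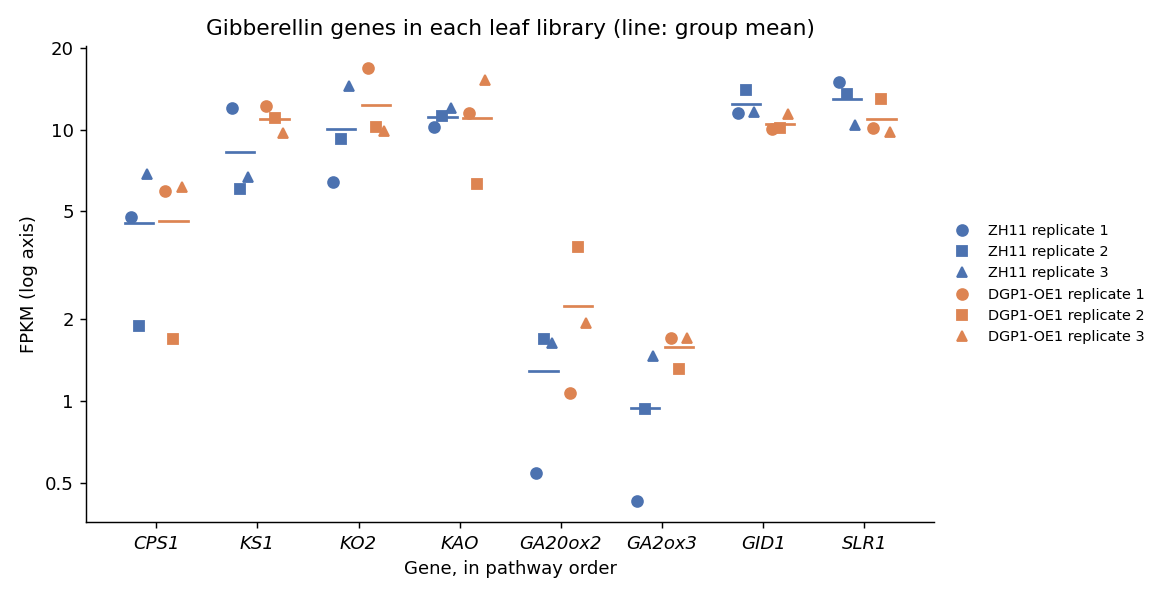
FPKM of the 8 gibberellin genes in each library, on a log axis, with ZH11 in blue, DGP1-OE1 in orange, a marker shape for each replicate number and a line at each group's mean (n = 3 libraries each). The 2 groups overlap for every gene except GID1, and CPS1 is lowest in the replicate 2 library of both genotypes.

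In the leaf, transcripts for the receptor, the repressor and the middle steps of synthesis were listed above those for the first cyclase and the dioxygenases. SLR1, GID1, KO2, KAO and KS1 had means over all 6 libraries between 9.63 and 12 FPKM, and their ranges overlapped from each gene to the next. KS1 was above CPS1 in each library but ZH11 replicate 3. CPS1 averaged 4.56 ± 2.25 FPKM, GA20ox2 1.76 ± 1.07 FPKM and GA2ox3 1.26 ± 0.499 FPKM (SD, n = 6 libraries). Both dioxygenase genes lay below all of the 5 higher genes in 6 of 6 libraries. GA2ox3 was the lowest of the 8 genes in 5 libraries and GA20ox2 in 1, DGP1-OE1 replicate 1, so the order of these 2 neighbours did not hold in every library. By mean FPKM, GA2ox3 stood above 4.37% of all tested genes, GA20ox2 above 10.3%, CPS1 above 32.1% and SLR1 above 58.5%.

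The first committed step is run by CPS1 (Os02g0278700, chromosome 2), which cyclises geranylgeranyl diphosphate to ent-copalyl diphosphate. Its FPKM was 4.78, 1.89 and 6.89 in ZH11 replicates 1, 2 and 3. In DGP1-OE1 replicates 1, 2 and 3 it was 5.93, 1.69 and 6.18. The replicate 2 library was the lowest of each genotype, and the groups lay over each other, with means of 4.52 ± 2.51 and 4.6 ± 2.52 FPKM (SD, n = 3 each). The log2 difference was 0.01 (SE 0.48, limma, adjusted p = 0.997), and its 95% interval ran from -1.05 to 1.07. The sign turned on single libraries: the difference was -0.40 without ZH11 replicate 2 and 0.47 without DGP1-OE1 replicate 2. Picked after its values were seen, the pattern of both replicate 2 libraries below the other 4 was shown by 987 of the tested genes (5.4%), and both above the other 4 by 3212 (17.6%). The labels do not say what libraries of equal number share, and its part in the level of CPS1 was not tested.

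KS1 (Os04g0611800, chromosome 4) turns ent-copalyl diphosphate into ent-kaurene. Its ZH11 values were 12, 6.07 and 6.69 FPKM for replicates 1, 2 and 3. The DGP1-OE1 libraries held 12.2, 11 and 9.76 FPKM. ZH11 replicate 1 lay within the range of the overexpressor, and the other ZH11 libraries lay below it. The mean in DGP1-OE1 was 1.33 times that in ZH11, a log2 difference of 0.43 (SE 0.30, limma, adjusted p = 0.757), with an interval from -0.23 to 1.08. Without ZH11 replicate 1 the difference was 0.70, with an unadjusted p of 0.0403 and an adjusted p of 0.806 in limma. Without ZH11 replicate 2 it was 0.26, and without ZH11 replicate 3 it was 0.32.

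The P450 enzymes follow. KO2 (Os06g0570100, chromosome 6) oxidises ent-kaurene to ent-kaurenoic acid, and its FPKM was 6.42, 9.23 and 14.6 in ZH11 replicates 1, 2 and 3. In DGP1-OE1 it was 17, 10.2 and 9.87. One ZH11 library was above 2 of the 3 overexpressor libraries, so the groups overlapped. The log2 difference was 0.30 (SE 0.33, limma, adjusted p = 0.877), with an interval from -0.43 to 1.03. Leaving out ZH11 replicate 1 brought it to 0.04, and leaving out ZH11 replicate 3 to 0.58.

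KAO (Os06g0110000), on the same chromosome, carries ent-kaurenoic acid to the first gibberellin of the pathway. Its 3 ZH11 values were close together, at 10.3, 11.2 and 12.1 FPKM. The DGP1-OE1 values, at 11.5, 6.31 and 15.3 FPKM for replicates 1, 2 and 3, were more scattered, with replicate 3 above all of them, replicate 2 below all of them and replicate 1 among them. The ZH11 mean was 11.2 ± 0.896 FPKM and that of DGP1-OE1 11 ± 4.5 FPKM (SD, n = 3 each). The log2 difference was -0.09 (SE 0.31, limma, adjusted p = 0.966), with an interval from -0.78 to 0.60. It turned to 0.23 without DGP1-OE1 replicate 2.

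GA20ox2 (Os01g0883800, chromosome 1), the SD1 gene whose loss gives semidwarf rice, makes the direct precursors of active gibberellin. It was listed at 0.543, 1.69 and 1.64 FPKM in ZH11 replicates 1, 2 and 3. The DGP1-OE1 libraries stood at 1.07, 3.69 and 1.95 FPKM. DGP1-OE1 replicate 1 lay within the ZH11 range and the other overexpressor libraries above it. The mean in DGP1-OE1 was 1.73 times that in ZH11, a log2 difference of 0.46 (SE 0.43, limma, adjusted p = 0.836), and the interval ran from -0.48 to 1.41. Without DGP1-OE1 replicate 2 the difference was 0.15, and without DGP1-OE1 replicate 1 it was 0.74.

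GA2ox3 (Os01g0757200), also on chromosome 1, inactivates the hormone and its precursors. Its FPKM was 0.43, 0.932 and 1.47 in ZH11 replicates 1, 2 and 3. The DGP1-OE1 libraries held 1.71, 1.32 and 1.71 FPKM. DGP1-OE1 replicate 2 fell below ZH11 replicate 3, which was the only crossing between the groups. In ZH11 only replicate 3 reached the 1 FPKM of the filter, and in DGP1-OE1 every library did. The gene thus entered the test through the group where it is higher. The ratio of the means was 1.67, the log2 difference 0.44 (SE 0.38, limma, adjusted p = 0.82), and the interval from -0.40 to 1.28. At these low levels the pseudocount mattered: with 0.1 in place of 1 the log2 differences were 0.81 for GA2ox3 and 0.73 for GA20ox2, again past no threshold. Both genes had their lowest value in ZH11 replicate 1, and without that library their differences were 0.24 and 0.20.

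GID1 (Os05g0407500, chromosome 5), the soluble gibberellin receptor, was the steadiest of the 8 genes. Its FPKM was 11.6, 14.1 and 11.7 in ZH11 replicates 1, 2 and 3. In DGP1-OE1 it was 10.1, 10.1 and 11.4. Every DGP1-OE1 library lay below every ZH11 library, by a margin of 11.4 against 11.6 FPKM at the nearest. The means were 12.4 ± 1.41 and 10.5 ± 0.756 FPKM (SD, n = 3 each), a ratio of 0.848. The log2 difference was -0.22 (SE 0.24, limma, adjusted p = 0.876), and the interval ran from -0.74 to 0.31. The SE of limma is moderated towards that of genes of like level, and the SD of GID1 within genotypes was only 0.12. Without ZH11 replicate 2 the difference was -0.13.

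SLR1 (Os03g0707600, chromosome 3), the DELLA repressor that bound GID1 removes, had 15, 13.6 and 10.4 FPKM in ZH11 replicates 1, 2 and 3. The DGP1-OE1 libraries had 10.2, 13 and 9.78 FPKM. ZH11 replicate 3 and DGP1-OE1 replicate 2 crossed the other group. The DGP1-OE1 mean was 0.845 times that of ZH11, and the log2 difference was -0.22 (SE 0.26, limma, adjusted p = 0.884), with an interval from -0.78 to 0.34. Leaving out ZH11 replicate 3 gave -0.36, and leaving out ZH11 replicate 1 gave -0.11.

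**Figure D2:**
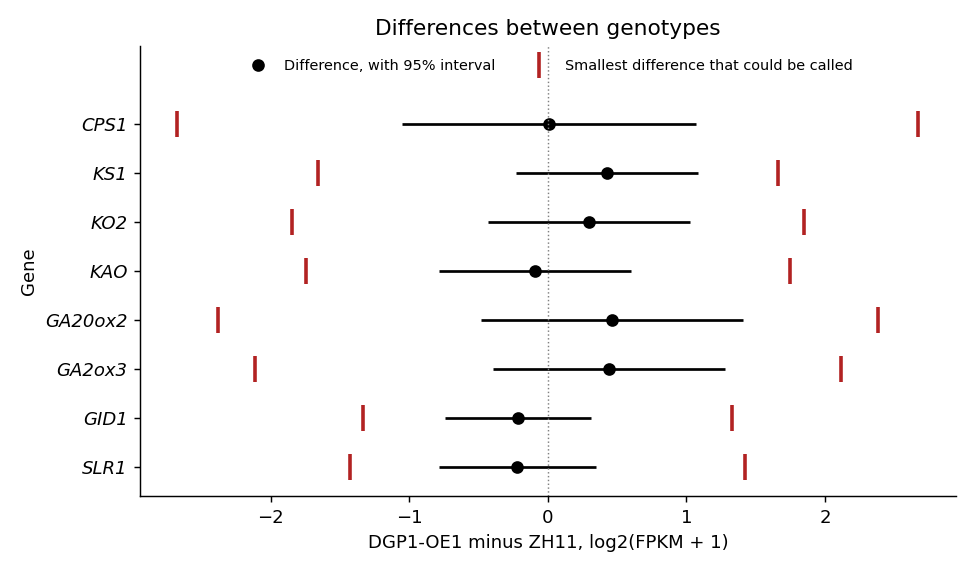
Difference between genotypes for each gibberellin gene (points, DGP1-OE1 minus ZH11 on the log2(FPKM + 1) scale) with its 95% interval (lines), and the smallest difference that could have been called given the SE of each gene (red marks). All 8 intervals include 0, and the smallest callable difference runs from 1.33 for GID1 to 2.67 for CPS1.

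The test could call only large estimated differences in these genes. At the p of the weakest call made in the whole table (0.000173), a difference had to reach 1.33 log2 units in GID1, 1.43 in SLR1, 1.66 in KS1, 1.75 in KAO, 1.85 in KO2, 2.12 in GA2ox3, 2.38 in GA20ox2 and 2.67 in CPS1. The 95% intervals lay within 1 log2 unit on either side of 0 for 3 genes, KAO, GID1 and SLR1. For the other 5 genes the interval reached past 1 log2 unit in at least 1 direction. An estimated difference of 1 log2 unit would not have been called in any of the 8 genes, given these SEs. The units are of log2(FPKM + 1), which understates the change of low genes. The lack of calls thus does not show that changes of this size or smaller are absent.

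The genes differed in how far replicate libraries of one genotype lay apart. The SD within genotypes on the log2(FPKM + 1) scale was 0.77 for CPS1, larger than in 92.6% of the tested genes. It was 0.12 for GID1, larger than in 2.93% of them, and 0.23 for SLR1, still on the low side of the median over all tested genes. The synthesis genes KS1, KAO, KO2 and GA20ox2 lay between, at 0.35, 0.42, 0.48 and 0.53, and GA2ox3 was at 0.29. This scale narrows the spread of low genes. GA2ox3 ranked below KS1 on it, although FPKM spanned 3.98-fold over the 6 libraries for GA2ox3 and 2.02-fold for KS1. The median was 0.39 for the 8 genes and 0.37 for all tested genes. From the lowest to the highest of the 6 libraries, FPKM spanned 6.79-fold for GA20ox2, 4.08-fold for CPS1 and 3.98-fold for GA2ox3, against 1.4-fold for GID1 and 1.54-fold for SLR1.

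**Figure D3:**
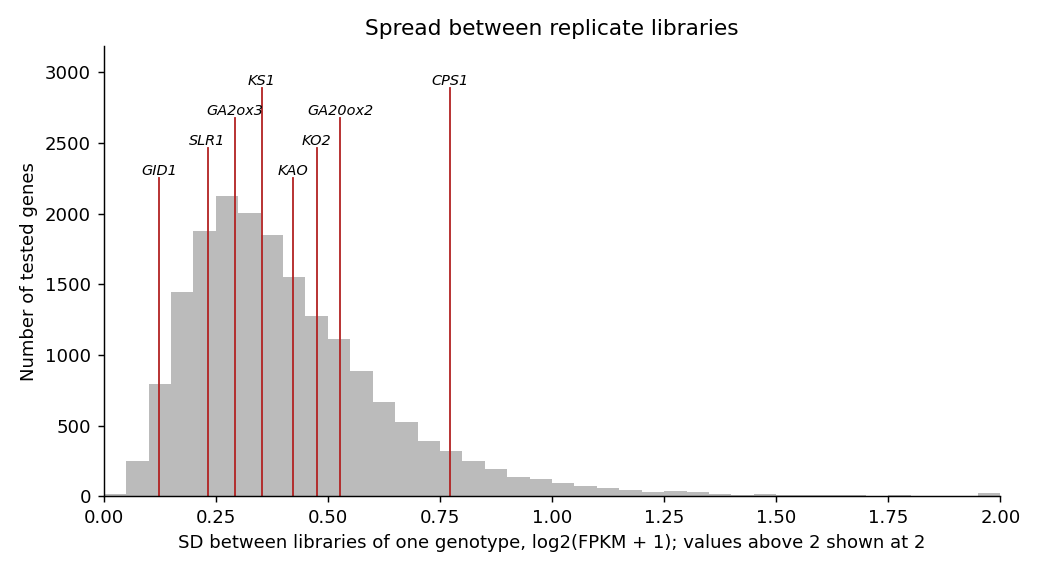
SD between libraries of one genotype (log2(FPKM + 1), averaged as variances over both genotypes) for all 18270 tested genes (grey bars) and for the 8 gibberellin genes (red lines). GID1 at 0.12 and SLR1 at 0.23 lie on the low side of the distribution and CPS1 at 0.77 on the high side.

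The balance between neighbouring steps was compared as 5 ratios of FPKM within each library, chosen after the values were seen. CPS1 over KS1 was 0.398, 0.311 and 1.03 in ZH11 replicates 1, 2 and 3. In DGP1-OE1 it was 0.484, 0.153 and 0.633, so the groups overlapped (exact permutation test, two-sided p = 0.6). GA20ox2 over GA2ox3, a step that makes the hormone's precursors against one that inactivates it, was 1.26, 1.81 and 1.12 in ZH11. In DGP1-OE1 the same ratio was 0.627, 2.8 and 1.14 (two-sided exact permutation p = 0.9). GID1 over SLR1, receptor against repressor, was 0.768, 1.03 and 1.12 in ZH11. The overexpressor libraries gave 0.99, 0.778 and 1.17 (two-sided exact permutation p = 1). KS1 over KO2 and KO2 over KAO gave p = 0.9 and 0.4 in the same exact permutation test. All 5 adjusted values were 1 (Benjamini-Hochberg), and 3 libraries against 3 cannot go below 0.1.

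A further 19 locus IDs, taken from general knowledge as other genes of gibberellin synthesis, inactivation and signalling, were looked up. No table used here annotates them, so they are given by count and not named. Of the 19, 7 had values and 6 passed the filter on low values. Of these 6, 0 were called and 0 reached an unadjusted p under 0.05 in limma, with a lowest adjusted p of 0.769, against the 0.356% called over all tested genes. The log2 difference was above 0 for 2 and below 0 for 4, from -0.48 to 0.27 with a median of -0.10. None had groups without overlap. Over all tested genes 8.8% reached an unadjusted p under 0.05 in limma and 13.9% had groups without overlap. With only 6 loci, counts of 0 beside these shares say little about the loci. Their mean FPKM ran from 2.19 to 79.6.

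For the 3 genes of highest mean level, the tested genes of most similar pattern were sought by the root mean square distance between centred log2(FPKM + 1) values over the 6 libraries. SLR1 was nearest to Os02g0817800, at 0.027 against its own root mean square of 0.219, and then to Os01g0355600, at 0.04. GID1 was nearest to Os12g0169000, at 0.0493 against 0.147, and then to Os02g0787500, at 0.0522. KO2 was nearest to Os01g0546900, at 0.0982 against 0.415, and then to Os04g0224600, at 0.127. With 6 libraries and 18270 genes, close matches of this kind are easily found.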

How the data were processed

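The deposited table holds FPKM made by the authors, 1 column per library. Per the submitters' processing notes, HISAT2 2.0, StringTie 1.3.0 and Bowtie 0.12.2 were used; what each did is not said there. The notes also name mm8, a build of the mouse genome, although the IDs are rice loci. Which rice build and annotation were used is not given in the sources used here. Overexpressor columns read DGP1-OE with a number, taken as DGP1-OE1 with that replicate number.

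Genes with at least 1 FPKM in at least 3 of 6 libraries were tested on log2(FPKM + 1), with no further scaling, in limma 3.58.1 (R 4.3.3) with an intensity trend, two-sided, with Benjamini-Hochberg adjustment over all tested genes and a threshold of 0.05. The fit was tested on simulated normal values that used its own variances. Changes were planted only in genes with a mean log2(FPKM + 1) above 3. That test thus does not cover genes as low as CPS1, GA20ox2 and GA2ox3. Alternatives were a pseudocount of 0.1, no filter, median-of-ratios scaling, no intensity trend, a replicate block and leaving out each library. Names of the 9 genes come with the rule that chose them; 0 of 19696 IDs matched the RefSeq rice gene table, so no sequence is shown. Chromosomes were read from the IDs. All 9 genes are named whatever their result. The genes, lists and tests were chosen with earlier results of these data known.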

Additional observations from a re-analysis of the deposited data

How the results depend on the processing

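No gibberellin gene, and none of the 6 other gibberellin loci, was called under any of the 12 alternatives run. The lowest adjusted p of the 8 genes over them was 0.584 (limma, KS1 with the replicate number as a block). Of the 12 alternatives, no filter, no intensity trend and the replicate block leave each difference as it is and change only its SE. Of 96 alternative values of the 8 genes' differences, counting these fixed ones, 90 kept their direction. The exceptions were CPS1, at -0.0013 with a pseudocount of 0.1 and between -0.40 and 0.47 when single libraries were left out, and KAO, between -0.35 and 0.23 when single libraries were left out and at 0.23 without both replicate 2 libraries, a setting chosen after seeing the data. Leaving out single libraries gave log2 differences of the within-library ratios from -0.89 to 0.14 for CPS1 over KS1, from -0.27 to 0.74 for KS1 over KO2, from 0.20 to 0.86 for KO2 over KAO, from -0.69 to 0.39 for GA20ox2 over GA2ox3 and from -0.16 to 0.16 for GID1 over SLR1. Over the whole table, 29 genes were called higher and 36 lower. Leaving out single libraries gave 16 to 39 and 9 to 42, and leaving out both replicate 2 libraries 61 and 83. A pseudocount of 0.1 left 21 lowered genes, and dropping the intensity trend left 14. The replicate block gave 130 and 139. Nothing in the labels ties equal replicate numbers together. Deviations from the group means were correlated across genes between the 2 libraries of equal number. The correlation was 0.0165 for number 1, 0.375 for number 2 and 0.137 for number 3. The numbers were not taken as pairs in the main fit, a choice that these values do not settle. For all these changes the cause was not tested. Depth is unknown, so the precision of the low genes GA20ox2 and GA2ox3 rests on 3 libraries a group and on the moderation in limma. The SE of GA2ox3 was 0.38 with the intensity trend and 0.27 without it, and that of GA20ox2 0.43 and 0.37.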
